A study of Mus musculus with 24 samples.

Results

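The genes described are 7 surface receptor genes of B cells out of 14318 genes measured above a low-signal filter: Cr2, Cd81, Fcer2a, Cd22, Siglecg, Fcgr2b and Cd72. They were taken by name. Each was represented by 1 probe set, chosen by its mean log2 signal over all 24 arrays as the brightest of those that carry only that gene's symbol in the platform annotation. In all, 13 probe sets carry only the symbol of 1 of these genes, 12 of them passed the filter, and all 7 genes were measured. The group was put together with genotype differences of Cr2, Cd22 and Fcer2a in these same arrays already known, so a count of its members is a description of these arrays and not independent evidence.

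The samples are B cells enriched with magnetic beads from the spleens of C57BL/6 mice, with an age of 6 to 8 weeks given for them. NFATc1-deficient cells (KO) came from mice in which exon 3 of Nfatc1, the part that encodes the calcineurin-binding regulatory region, is flanked by loxP sites and cut out by Cre driven from the Cd79a (mb-1) locus, active throughout the B lineage. Control cells (WT) came from control mice, and the labels do not say whether those mice carried the Cre or the loxP allele. Cells of each genotype were measured after 0, 3, 8 and 16 h of stimulation through the B cell receptor by anti-IgM antibody. Each of the 8 groups has 3 biological replicates. No group was kept in culture without the antibody for the same time, so anti-IgM and time in culture cannot be told apart. The study's title asks what NFATc1, a transcription factor activated by calcium and calcineurin, does for survival, function and suppressive capacity of B cells whose receptor is engaged.

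These receptors set how strongly a B cell answers its antigen receptor. The coreceptor complex joins CD21, the complement receptor encoded by Cr2, with the tetraspanin CD81, and together they lower the amount of complement-coated antigen needed for a response. CD22, Siglec-G, CD72 and the IgG receptor FcγRIIB carry inhibitory motifs in their cytoplasmic tails and recruit phosphatases that weaken receptor signalling. CD23, encoded by Fcer2a, is the low-affinity receptor for IgE and a standard surface marker of follicular B cells, whereas marginal zone B cells carry much CD21 and little CD23.

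All values are log2 of MAS5 signals, so a difference of 1 is a doubling. Differences are KO minus WT, or a later time minus 0 h. SE is the standard error from limma's fit, and an adjusted p is limma's p after Benjamini-Hochberg adjustment over all 14318 genes, with a gene called when it lies under 0.05. Array medians lay between 6.22 and 6.98, and those of KO 16 h replicate 2 (6.98) and KO 8 h replicate 2 (6.83) were the highest. The 4 WT arrays of replicate number 2 showed male-type expression of sex-linked genes and the other 20 female-type expression, so sex is unequal between the genotypes. The 5 measured B cell markers averaged 13.3 to 13.8 at 0 h and 12.1 to 12.5 at 16 h, and all 5 were called lower at 16 h in each genotype (median changes -1.13 in WT and -1.43 in KO). At 0 h, 3 or 4 of 5 T cell markers lay under the filter level, but 0 of 5 NK cell markers, 1 of 8 macrophage markers and, of 7 neutrophil markers, 0 in WT and 2 in KO cells. All 5 probe sets of Nfatc1 gave higher averages in KO arrays, by 0.11 to 0.56, and since their place relative to exon 3 is not given they do not check the deletion.

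Promoter windows are shown for the 3 genes with a called genotype difference and for Siglecg and Fcgr2b, inhibitory receptors without one. Each window runs from 250 bases before to 50 bases after an annotated start, 5′ to 3′ on the gene's strand, from RefSeq on GRCm38.p6, and the most upstream window is used where a gene has several. Capitals mark GGAAA, the core that NFAT proteins recognise, or its reverse complement TTTCC. The windows are chr1:195176670-195176969 (minus strand) for Cr2, chr8:3694125-3694424 (minus) for Fcer2a, chr7:30878979-30879278 (minus) for Cd22, chr7:43407989-43408288 (plus) for Siglecg and chr1:170976022-170976321 (minus) for Fcgr2b.
Cr2: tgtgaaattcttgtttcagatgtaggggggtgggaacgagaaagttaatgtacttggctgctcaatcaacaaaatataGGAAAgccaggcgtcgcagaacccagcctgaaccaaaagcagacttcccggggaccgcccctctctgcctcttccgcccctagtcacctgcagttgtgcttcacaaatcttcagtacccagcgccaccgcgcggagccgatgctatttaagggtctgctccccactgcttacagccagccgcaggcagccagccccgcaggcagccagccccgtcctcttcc
Fcer2a: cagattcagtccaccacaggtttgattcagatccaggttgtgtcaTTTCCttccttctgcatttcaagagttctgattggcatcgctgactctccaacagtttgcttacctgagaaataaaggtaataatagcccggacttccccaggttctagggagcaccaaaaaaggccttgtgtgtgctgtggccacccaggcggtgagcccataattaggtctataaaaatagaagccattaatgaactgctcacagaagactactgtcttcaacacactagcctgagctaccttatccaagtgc
Cd22: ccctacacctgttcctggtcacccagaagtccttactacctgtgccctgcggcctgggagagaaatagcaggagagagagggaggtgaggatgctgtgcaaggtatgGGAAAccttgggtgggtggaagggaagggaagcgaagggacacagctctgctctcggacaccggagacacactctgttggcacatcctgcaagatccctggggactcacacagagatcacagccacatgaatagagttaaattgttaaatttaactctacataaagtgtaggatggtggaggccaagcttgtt
Siglecg: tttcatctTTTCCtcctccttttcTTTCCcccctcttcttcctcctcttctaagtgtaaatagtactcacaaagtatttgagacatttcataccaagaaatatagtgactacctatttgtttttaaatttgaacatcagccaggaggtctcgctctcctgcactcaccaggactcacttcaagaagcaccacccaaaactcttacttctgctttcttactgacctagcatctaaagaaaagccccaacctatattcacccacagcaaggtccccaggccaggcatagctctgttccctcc
Fcgr2b: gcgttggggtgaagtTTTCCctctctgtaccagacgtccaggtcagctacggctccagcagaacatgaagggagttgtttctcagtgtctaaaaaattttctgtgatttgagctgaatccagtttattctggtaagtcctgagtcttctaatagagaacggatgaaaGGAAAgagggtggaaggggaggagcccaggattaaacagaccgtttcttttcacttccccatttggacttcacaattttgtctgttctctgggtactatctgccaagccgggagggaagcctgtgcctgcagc

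Cr2 and Cd22 had 1 core each, at -172 and -143 from the start, and Fcer2a had 1 at -205. Siglecg had 2 cores, at -242 and -226, and Fcgr2b had 2, at -235 and -83. No core was found in the windows of Cd81 (chr7:143052500-143052799, plus) and Cd72 (chr4:43454577-43454876, minus). Of all 32851 promoter windows of this length, 61.3% hold the core on 1 strand or the other. The AP-1 motif TGANTCA stood in the Fcer2a window at -228 and in none of the other 6, against 7.81% of all windows, and the octamer ATGCAAAT stood in none of the 7, against 1.74%. Of the 3 genes with a called genotype difference 3 held a core, and of the 4 without one 2 did. The windows of Cd22 and Cd72 lie within the annotated spans of their genes (chr7:30865404-30880342 and chr4:43447724-43455102), so neither is at the outermost start. Those of Cr2 and Siglecg reach past the annotated spans (chr1:195136811-195176880 and chr7:43408192-43418349). The starts used for Cr2 and Siglecg still lie inside the spans, so their positions are also counted from an inner start.

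Cr2, the coreceptor gene for complement-coated antigen, was high in resting cells and fell throughout stimulation in both genotypes, with KO cells above WT cells at 8 and 16 h. In WT arrays its log2 signal was 13.34, 13.57 and 13.43 at 0 h, 12.72, 12.40 and 12.58 at 3 h, 11.13, 11.67 and 11.64 at 8 h, and 9.46, 9.17 and 9.46 at 16 h. In KO arrays it was 14.02, 13.83 and 13.45 at 0 h, 12.92, 12.94 and 12.91 at 3 h, 12.28, 12.59 and 12.28 at 8 h, and 11.08, 11.20 and 10.47 at 16 h. The genotypes overlapped at 0 h, and at 3, 8 and 16 h every KO array lay above every WT array. By 16 h the signal was 5.9% of its own 0 h level in WT cells and 13.9% in KO cells. The WT change of -4.08 (SE 0.174, limma adjusted p = 8.4e-14) had the third smallest p of all genes, and the KO change was -2.85 (SE 0.174, adjusted p = 1.66e-11).

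The genotype difference of Cr2 was 0.32 at 0 h and 0.36 at 3 h, neither called, then 0.90 at 8 h (SE 0.174, limma adjusted p = 0.0356) and 1.55 at 16 h (SE 0.174, adjusted p = 3.03e-05). At 16 h this is a 2.94-fold difference, with a 95% interval of 2.29 to 3.77. Without the 4 male-type arrays it was 1.46 (adjusted p = 0.00177). Mouse Cr2 encodes both CD21 and CD35 by alternative splicing, and this probe set, the only one with the gene's symbol alone, is not assigned to either form here. Between 8 and 16 h, a comparison added after the values had been seen, limma called 3.92% of all genes lower and 3.83% higher in WT cells and 2.26% and 2.4% in KO cells. Cr2 fell by 2.12 in WT cells (adjusted p = 8.58e-08) and by 1.46 in KO cells (adjusted p = 1.38e-05). In the order of the group means KO 0 h stood first and WT 16 h last, and WT 3 h overlapped KO 8 h and WT 8 h overlapped KO 16 h, so the KO 8 h and 16 h groups each sat beside the WT group of the time before.

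Cd81, the tetraspanin of the same complex, took another course: it fell at 3 h, stood nearer to its start at 8 h (WT change -0.27, limma adjusted p = 0.241, KO change -0.53, adjusted p = 0.0181) and was above it at 16 h in WT cells. The WT arrays had log2 signals of 12.06, 12.07 and 12.39 at 0 h, 10.76, 10.84 and 10.94 at 3 h, 11.94, 11.66 and 12.10 at 8 h, and 12.49, 12.70 and 12.80 at 16 h. The KO arrays read 12.35, 12.27 and 12.41 at 0 h, 10.52, 10.72 and 10.85 at 3 h, 11.66, 11.48 and 12.31 at 8 h, and 12.49, 12.62 and 12.96 at 16 h. All 6 arrays at 3 h lay under all others, and the genotypes overlapped at every time. The 3 h signal was 39.8% of the 0 h level in WT cells (limma adjusted p = 7.37e-07) and 32% in KO cells (adjusted p = 3.18e-08). The 16 h level was 140% of the start in WT cells (change 0.49, SE 0.168, adjusted p = 0.0233) and 127% in KO cells (change 0.35, adjusted p = 0.118). The WT call at 16 h ended with quantile normalization (adjusted p = 0.207) and without the male-type arrays (adjusted p = 0.16). From 8 to 16 h Cd81 rose in both genotypes, by 0.76 in WT cells (adjusted p = 0.00523) and 0.88 in KO cells (adjusted p = 0.00262).

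The partners of the coreceptor complex separated over the time course. The within-array difference Cr2 minus Cd81, whose change over time or between groups is the measure and not its level, went from 1.27 ± 0.23 (SD, n = 3) at 0 h to -3.30 ± 0.251 (SD, n = 3) at 16 h in WT arrays. In KO arrays it went from 1.43 ± 0.335 to -1.77 ± 0.624 (SD, n = 3 each). At 16 h the KO and WT arrays did not overlap on this measure and differed by 1.53 (exact two-sided permutation p = 0.1, the smallest that 3 against 3 allows). At 3 h they did not overlap either and differed by 0.51 (exact two-sided permutation p = 0.1). At 0 and 8 h they overlapped, with KO minus WT at 0.16 and 0.99.

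**Figure D1:**
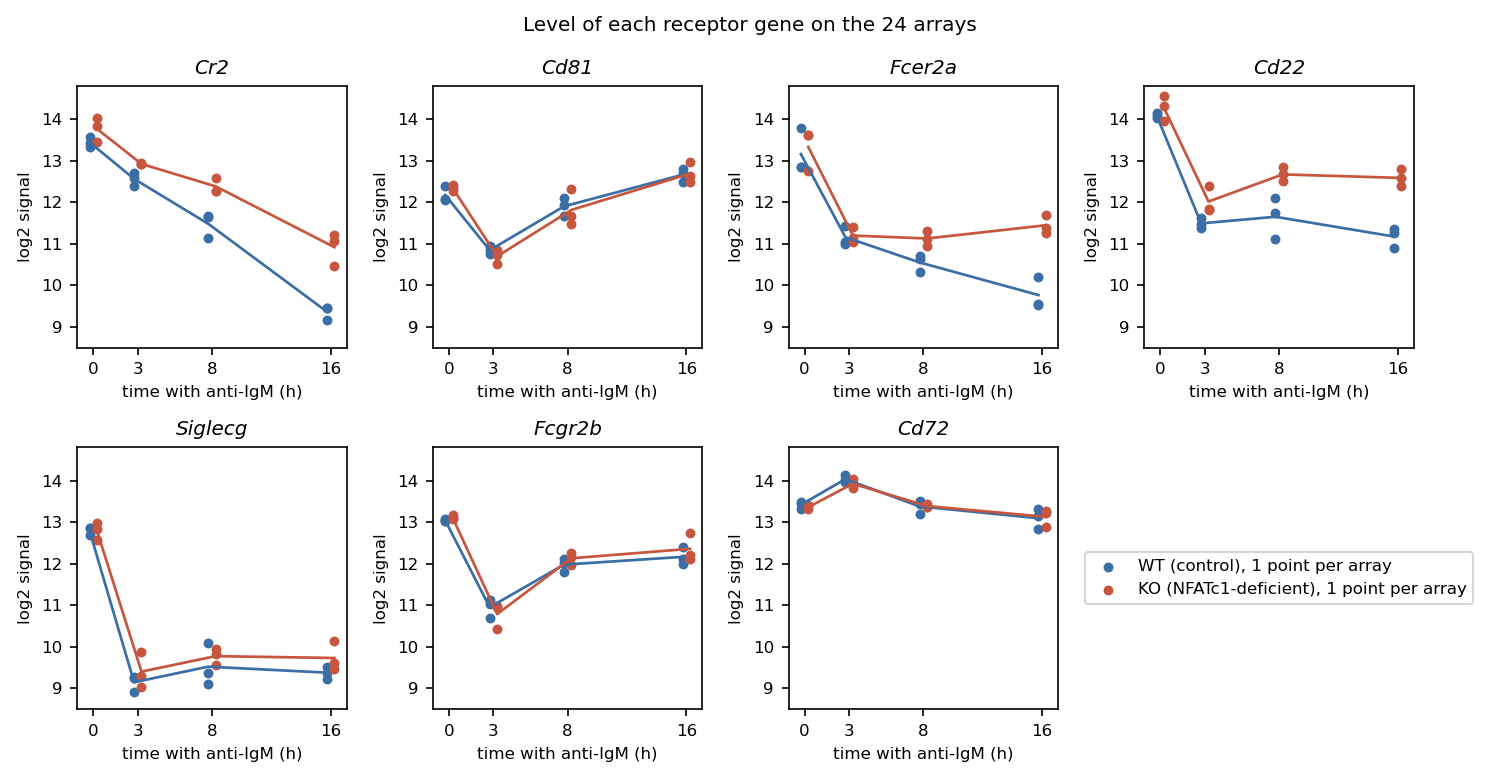
Log2 signal of each of the 7 genes (vertical axis) against hours with anti-IgM (horizontal axis), 1 point per array and a line through the 3-array mean of each group, WT in blue and KO in red. The lines separate with time for Cr2, Fcer2a and Cd22, with KO arrays at 16 h at 10.47 or above for all 3, and stay close together for Cd81, Fcgr2b and Cd72.

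Fcer2a, which encodes CD23, fell in both genotypes within 3 h and then parted: it went on falling in WT cells, and its KO level at 8 and 16 h stayed near that of 3 h. In WT arrays the log2 signal was 12.85, 13.78 and 12.85 at 0 h, 11.04, 11.43 and 11.01 at 3 h, 10.31, 10.71 and 10.63 at 8 h, and 10.20, 9.56 and 9.54 at 16 h. In KO arrays it was 13.63, 13.62 and 12.74 at 0 h, 11.05, 11.41 and 11.14 at 3 h, 10.95, 11.11 and 11.32 at 8 h, and 11.70, 11.38 and 11.27 at 16 h. The genotypes overlapped at 0 and 3 h and did not overlap at 8 and 16 h. Relative to its own 0 h level the WT signal was 25%, 16.4% and 9.5% at 3, 8 and 16 h, and the KO signal 22.8%, 21.7% and 27.1%. The 0 h arrays were the most spread of all groups of this gene, with an SD of 0.54 in WT and 0.51 in KO.

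At 16 h Fcer2a was 3.21-fold higher in KO cells (95% interval 2.26 to 4.54), a difference of 1.68 (SE 0.242, limma adjusted p = 0.000612), and it was 1.58 without the male-type arrays (adjusted p = 0.00338). Its earlier differences, 0.17 (0 h), 0.04 (3 h) and 0.58 (8 h), were not called, with an adjusted p = 0.804 at 8 h. From 8 to 16 h Fcer2a fell by 0.79 in WT cells (adjusted p = 0.0483), and the KO change was 0.32 (adjusted p = 0.581). The difference between these 2 changes was 1.10 (SE 0.343) with an unadjusted p of 0.0038 and an adjusted p of 1, and 0% of all genes were called for it.

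Cd22, the sialic acid-binding inhibitory receptor of B cells, lost most of its signal by 3 h in both genotypes and stayed low, with KO cells above WT cells at 8 and 16 h. The WT arrays had log2 signals of 14.03, 14.11 and 14.14 at 0 h, 11.62, 11.37 and 11.48 at 3 h, 11.74, 11.11 and 12.10 at 8 h, and 11.36, 10.90 and 11.26 at 16 h. The KO arrays read 14.55, 14.32 and 13.96 at 0 h, 11.84, 12.39 and 11.82 at 3 h, 12.50, 12.67 and 12.84 at 8 h, and 12.58, 12.80 and 12.39 at 16 h. The genotypes overlapped at 0 h and did not at 3, 8 and 16 h. Cd22 stood at 16.5%, 18.4% and 13.2% of its 0 h level in WT cells at 3, 8 and 16 h, and at 20.9%, 32.9% and 31% in KO cells.

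The genotype difference of Cd22 was 0.18 at 0 h, 0.53 at 3 h (SE 0.199, unadjusted p 0.0144, limma adjusted p = 1), 1.02 at 8 h (SE 0.199, adjusted p = 0.0358) and 1.41 at 16 h (SE 0.199, adjusted p = 0.000544). The 16 h difference is 2.66-fold, with a 95% interval of 2.00 to 3.54, and was 1.27 without the male-type arrays (adjusted p = 0.00338). In the ranking of its group means the KO 8 h and KO 16 h groups followed the 2 unstimulated groups and all 3 stimulated WT groups came last.

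Siglecg, the other B cell receptor for sialic acids in this group, fell by 3 h in both genotypes, by 3.65 in WT cells (limma adjusted p = 1.12e-11) and by 3.39 in KO cells (adjusted p = 4.07e-11), and no genotype difference was called. In WT arrays the log2 signal was 12.85, 12.85 and 12.68 at 0 h, 9.26, 9.28 and 8.90 at 3 h, 10.09, 9.10 and 9.37 at 8 h, and 9.38, 9.52 and 9.23 at 16 h. In KO arrays it was 12.98, 12.84 and 12.58 at 0 h, 9.29, 9.89 and 9.03 at 3 h, 9.95, 9.82 and 9.55 at 8 h, and 9.60, 10.13 and 9.46 at 16 h. The genotypes overlapped at all 4 times. After 3 h 7.97% of the WT and 9.52% of the KO starting signal was left, and after 16 h 9.36% and 11.9%. The genotype difference at 16 h was 0.35 (95% interval -0.11 to 0.82, limma adjusted p = 0.927), an interval that includes 0 and leaves out the difference measured for Cd22.

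Cd22 and Siglecg were set against each other within each array. At 16 h Cd22 minus Siglecg was 2.86 ± 0.169 (SD, n = 3) in KO arrays and 1.80 ± 0.363 (SD, n = 3) in WT arrays, without overlap and 1.06 apart (exact two-sided permutation p = 0.1, the smallest that 3 against 3 allows). At 0 h the same measure was 1.48 ± 0.0954 and 1.3 ± 0.142 (SD, n = 3 each) and overlapped. At 3 and 8 h the genotypes overlapped on it as well.

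Fcgr2b, the inhibitory receptor for IgG-bound antigen, had its lowest level at 3 h and stood higher at 8 and 16 h, below its start, in both genotypes. The WT arrays had log2 signals of 13.08, 13.03 and 13.02 at 0 h, 10.70, 11.13 and 11.02 at 3 h, 12.02, 11.79 and 12.12 at 8 h, and 12.10, 12.40 and 12 at 16 h. The KO arrays read 13.17, 13.07 and 13.09 at 0 h, 10.42, 10.99 and 10.96 at 3 h, 11.96, 12.17 and 12.27 at 8 h, and 12.12, 12.75 and 12.21 at 16 h. All 6 arrays of 3 h lay under those of the other times, and the genotypes overlapped throughout. The signal was 23.5%, 47.8% and 54.5% of its start in WT cells and 20%, 50.8% and 59.5% in KO cells at 3, 8 and 16 h. The genotype difference at 16 h was 0.19 (95% interval -0.14 to 0.53, limma adjusted p = 0.997).

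Cd72, the receptor for the semaphorin CD100, had the smallest WT changes of the 7 genes at all 3 times, and at 3 h it rose where the others fell. In WT arrays the log2 signal was 13.33, 13.44 and 13.49 at 0 h, 14.14, 13.96 and 14.02 at 3 h, 13.19, 13.51 and 13.44 at 8 h, and 13.31, 13.15 and 12.83 at 16 h. In KO arrays it was 13.41, 13.31 and 13.38 at 0 h, 13.82, 14.03 and 13.93 at 3 h, 13.37, 13.36 and 13.45 at 8 h, and 13.23, 13.27 and 12.90 at 16 h. The 6 arrays of 3 h lay above all others, at 153% of the start in WT cells (limma adjusted p = 0.000191) and 148% in KO cells (adjusted p = 0.000498). At 16 h it was at 79.9% in WT cells (change -0.32, SE 0.12, adjusted p = 0.0344) and 85.1% in KO cells (change -0.23, SE 0.12, adjusted p = 0.144). The WT call at 16 h ended with arrays scaled to a common median (adjusted p = 0.303), without the male-type arrays (adjusted p = 0.116) and without WT 16 h replicate 3 (adjusted p = 0.249). Its genotype differences lay between -0.11 and 0.03 at the 4 times, and the 95% interval at 16 h was -0.21 to 0.28.

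Counted over the 7 genes, 6 were lower and 1 was higher in WT cells at 3 h than at 0 h. Limma called 21.3% of all genes lower and 17% higher there. At 8 h 5 were lower in WT cells (15.7% of all genes), with Cd81 and Cd72 not called, and at 16 h 6 were lower (18.5%) and Cd81 higher (20.9% of all genes higher). In KO cells 6 were lower (21.7%) and Cd72 higher (16.6% of all genes higher) at 3 h, 6 were lower at 8 h (14.4%), all but Cd72, and 5 were lower at 16 h (16.4%). The median change of the 7 genes at 16 h was -2.92 in WT and -1.69 in KO cells, against 0.05 and 0.08 over all genes. The WT count at 16 h was 4 when a minimum of 1.5-fold was required, without Cd81, Cd72 and Fcgr2b. Over 12 alternative settings the 3 h count ran from 5 to 7 in each genotype, with the calls of Cr2 and Cd72 each lost in 1 setting. The KO count at 8 h ran from 4 to 6. Both genotypes were compared with their own 0 h arrays, and the later times of a genotype share those arrays.

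Between the genotypes the picture was narrower: 3 of 7 genes were higher in KO cells when averaged over the 4 times, against 0.733% of all genes, and none was lower (0.475% of all genes). The averaged differences were 0.78 for Cr2 (SE 0.0868, limma adjusted p = 9.3e-06), 0.78 for Cd22 (SE 0.0994, adjusted p = 5.89e-05) and 0.62 for Fcer2a (SE 0.121, adjusted p = 0.00738), and 0.22 for Siglecg (SE 0.112, adjusted p = 0.578). Those of Fcgr2b, Cd72 and Cd81 lay between -0.03 and 0.06. By time, none was called at 0 h (0.0349% of all genes) or at 3 h (0.0559%), 2 were higher at 8 h (0.0559% of all genes higher) and 3 at 16 h (0.426% higher, and 0 of 7 lower against 0.189%). At an unadjusted p under 0.05, 0 of 7 passed at 0 h (500 of all 14318 genes), and Cr2 and Cd22 at 3 h (531 of 14318). KO and WT arrays overlapped for all 7 genes at 0 h (4.25% of all genes had every KO array above every WT array). They did not overlap for 2 of the 7 at 3 h (4.27% of all genes with KO above WT), 3 at 8 h (6.03%) and 3 at 16 h (6.1%).

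Arrays that share genotype and replicate number may share a source, which the labels do not settle. Averaged over the 4 arrays of each such set, Cr2 was 12.57, 12.64 and 12.28 in the KO sets and 11.66, 11.70 and 11.78 in the WT sets. Cd22 was 12.87, 13.04 and 12.75 against 12.19, 11.87 and 12.25, and Fcer2a 11.83, 11.88 and 11.62 against 11.10, 11.37 and 11.01. For these 3 genes every KO set lay above every WT set (exact two-sided permutation p = 0.1, the smallest that 3 against 3 allows), and the other 4 genes overlapped. In limma on the same set means Cr2 passed by a narrow margin (adjusted p = 0.05 after rounding), and Cd22 (adjusted p = 0.0854) and Fcer2a (adjusted p = 0.204) did not. The shares of all genes with separated sets, or called on set means, were not counted, so the counts of members on set means have no background. The averaged call of Fcer2a also ended with the sets as a random block (adjusted p = 0.119).

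The 8 h calls of Cr2 and Cd22 rested on small margins. Both ended with arrays scaled to a common median (adjusted p = 0.117 and 0.149), without the 2 arrays of highest median (0.167 and 0.142), an alternative chosen after the arrays had been seen, and without the male-type arrays (0.0828 and 0.309). They also ended without any 1 of KO 8 h replicates 1 to 3, WT 8 h replicate 1, WT 0 h replicate 1 and KO 0 h replicate 2 (adjusted p up to 0.278 for Cr2 and 0.172 for Cd22), and the Cd22 call without WT 8 h replicate 2 (0.237), WT 0 h replicate 2 (0.0552) or KO 16 h replicate 1 (0.055). The 16 h calls of all 3 genes held without any single array, and a minimum of 1.5-fold left Cr2 alone (Cd22 adjusted p = 0.197, Fcer2a adjusted p = 0.156).

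**Figure D2:**
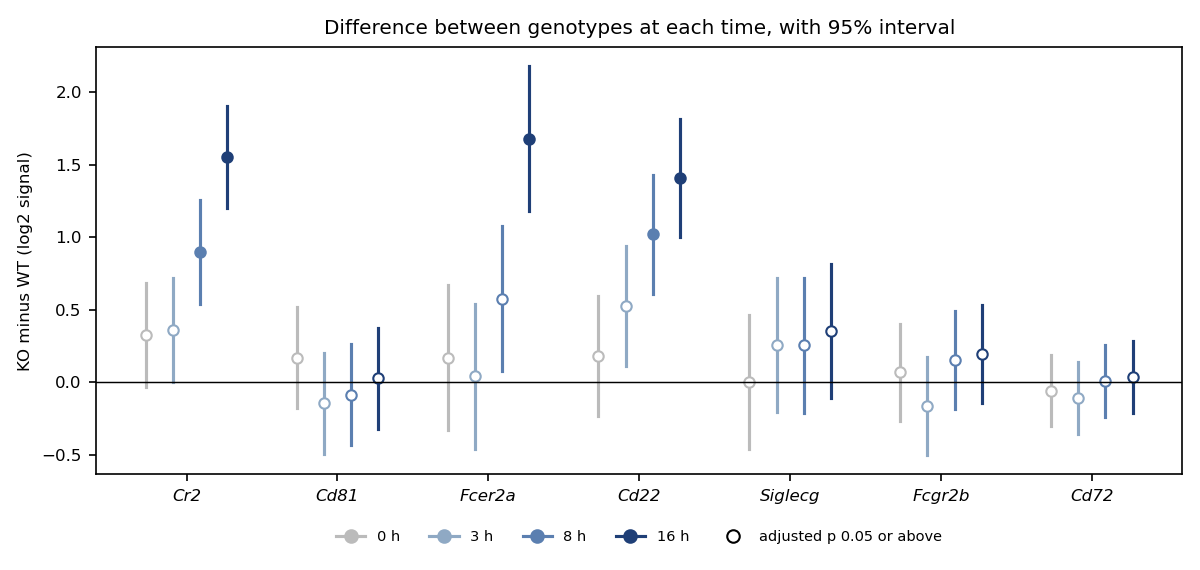
KO minus WT in log2 signal (vertical axis) for each gene at 0, 3, 8 and 16 h, from pale to dark, with limma's 95% interval as bars. Filled points have an adjusted p under 0.05, and they are Cr2 and Cd22 at 8 h and Cr2, Fcer2a and Cd22 at 16 h, the last at 1.41 to 1.68.

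Whether the response itself differed between genotypes was tested as the KO change minus the WT change. From 0 to 16 h this difference was 1.23 for Cr2 (SE 0.246, unadjusted p 4.61e-05, limma adjusted p = 0.0947), 1.23 for Cd22 (SE 0.281, unadjusted p 0.000222, adjusted p = 0.177) and 1.51 for Fcer2a (SE 0.343, unadjusted p 0.000207, adjusted p = 0.175). None of the 7 genes was called, against 0.021% of all genes (3 of 14318), with 624 of all genes at an unadjusted p under 0.05. With the sets as a random block all 3 were called (adjusted p = 0.0178, 0.0336 and 0.0433), and without KO 16 h replicate 3 Cr2 was (adjusted p = 0.00688). The share of all genes called in either setting was not counted. From 0 to 3 h and from 0 to 8 h none of the 7 was called, as in 0% of all genes, with 0 and 2 of the 7 (Cr2 and Cd22) at an unadjusted p under 0.05, against 330 and 446 of all 14318 genes. Over the 3 stimulated times together, limma's F-test gave unadjusted p values of 0.000111 for Cr2 (rank 6 of all genes), 0.0003 for Fcer2a (rank 12) and 0.00122 for Cd22 (rank 29), with adjusted p values of 0.265, 0.358 and 0.556. The count by the F-test was 0 of 7, against 0.014% of all genes, and 3 of 7 at an unadjusted p under 0.05, against 401 of all 14318. The 4 other genes had an unadjusted p of 0.424 or above in the F-test.

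**Figure D3:**
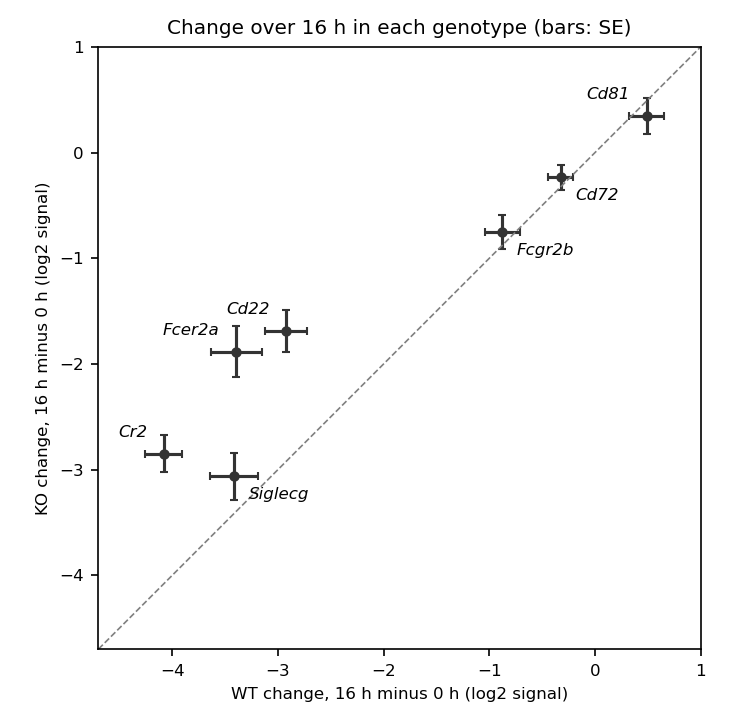
Change from 0 to 16 h in KO cells (vertical axis) against the same change in WT cells (horizontal axis), both in log2 signal with SE bars, and a dashed line of equal change. Cr2, Fcer2a and Cd22 lie above the line by 1.23 to 1.51, Siglecg by 0.35, and Fcgr2b, Cd72 and Cd81 lie within 0.14 of it.

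Other probe sets of the same genes that passed the filter gave the same directions in the comparisons named next. This did not hold for KO minus WT of Fcgr2b at 3 h, which was -0.16 by the main probe set and 0.01 by 1 other, neither called. The second probe set of Cd22 was 1.67 higher in KO cells at 16 h (SE 0.273, limma adjusted p = 0.00249 over the 26671 probe sets with 1 symbol) and fell by 3.46 in WT cells, and its KO change was -1.95. The second of Fcer2a was 1.87 higher at 16 h (SE 0.281, adjusted p = 0.00103), with changes of -3.83 in WT and -2.07 in KO cells. Of Fcgr2b, 3 further probe sets gave genotype differences of 0.27, 0.29 and 0.19 at 16 h, none of them called, and fell by 1.70 to 2.40 in WT cells at 3 h. The remaining Fcgr2b probe set failed the filter with a mean of 2.11 over the 24 arrays. The main Fcgr2b probe set has the suffix _s_at, which the array maker gives to probe sets that can match more than 1 transcript, so a contribution of related Fc receptor transcripts was not tested.

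**Figure D4:**
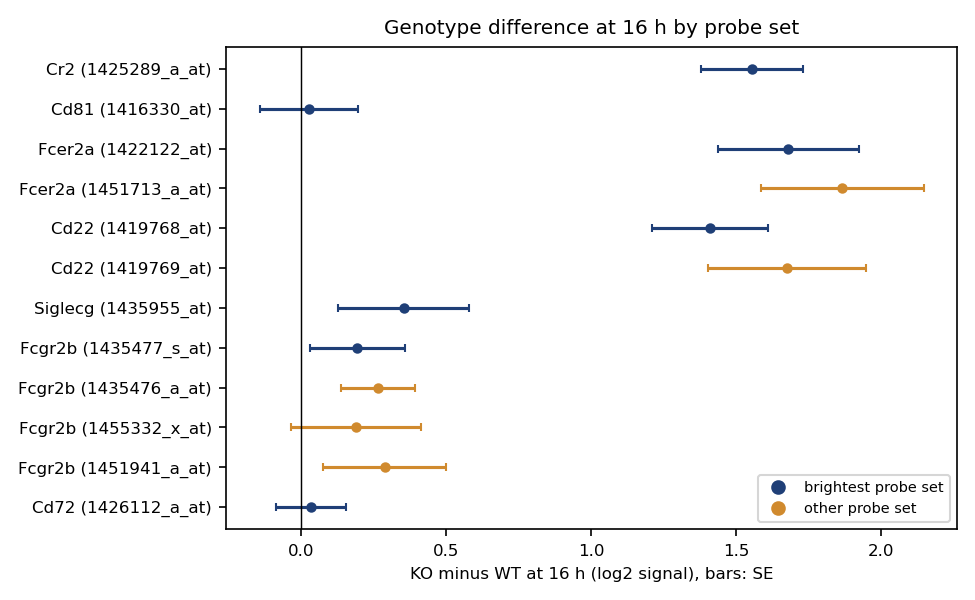
KO minus WT at 16 h in log2 signal (horizontal axis, bars are SE) for each of the 12 probe sets that passed the filter, the brightest of each gene in blue and the others in orange. Both probe sets of Fcer2a and both of Cd22 lie between 1.41 and 1.87, and the 4 of Fcgr2b between 0.19 and 0.29.

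The genes whose log2 values followed each receptor most closely over the 24 arrays were found by Pearson's r, given as a description because all genes share the same arrays and time course. For Cr2 they were the sorting receptor Sorl1 (0.964), Ciita, the coactivator of MHC class II genes (0.958), and the protease inhibitor Serpinb1a (0.953). For Cd22 they were Klhl6 (0.969), Tnfaip8l2 (0.963) and Zfp318 (0.96), and for Fcer2a the lysosomal mannosidase Man2b1 (0.95), Itpr3, a calcium channel of the endoplasmic reticulum (0.949), and Nipal3 (0.947). Siglecg was followed by the kinase Syk (0.987), Ccdc69 (0.986) and Dennd3 (0.983), and Fcgr2b by the translation inhibitor Pdcd4 (0.981), H2bc21 (0.976) and Akap17b (0.971). Cd81 was nearest to Trappc1 (0.97), the inflammasome adaptor Pycard (0.958) and Hadh (0.958), and Cd72 to Mnt (0.918), Ptdss1 (0.916) and Tpd52 (0.913). Of these, Sorl1 (1.18, limma adjusted p = 0.00144), Serpinb1a (0.88, adjusted p = 0.0205) and Klhl6 (0.82, adjusted p = 0.0147) were called higher in KO cells at 16 h. Limma called 0.426% of all genes higher there. These neighbours were picked over the same arrays in which Cr2 and Cd22 differ by genotype, so their differences are not separate evidence. Among the 7 genes themselves r was 0.923 between Cd22 and Fcer2a, 0.92 between Cd22 and Siglecg, and -0.9 between Cd81 and Cd72.

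The other genes of the coreceptor complex and of the signalling it feeds mostly fell over the time course, and most were not called between genotypes. Of 14 measured, 9 fell and 2 rose in WT cells at 16 h, with a median change of -0.81, where 18.5% of all genes fell and 20.9% rose with a median of 0.05. The kinase Syk (-3.14, limma adjusted p = 3.32e-13), the receptor chain Cd79b (-1.77, adjusted p = 3.54e-08) and the kinase subunit Pik3r1 (-1.39, adjusted p = 2.32e-08) fell, and the exchange factor Vav3 rose (2.48, adjusted p = 1.38e-08). Averaged over the times, 2 of the 14 were lower in KO cells, against 0.475% of all genes. They were Vav3 (-0.77, adjusted p = 0.00124) and the phosphoinositide kinase Pik3cd (-0.38, adjusted p = 0.0046). None was called at 16 h, where 0.426% of all genes were higher and 0.189% lower. Pik3cd was not called under the random block (adjusted p = 0.0957), and neither was with set means compared 3 against 3 (adjusted p = 0.132 and 0.403).

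Of 14 phosphatases and adaptors that inhibitory receptors recruit, 7 fell and 2 rose in WT cells at 16 h (median -0.53), against 18.5% and 20.9% of all genes. The ubiquitin ligase Cblb (-2.37), the adaptor Dok3 (-2.14), the Csk anchor Pag1 (-1.70) and the kinase Csk (-1.51) fell, each with a limma adjusted p of 8.08e-09 or less. Ptpn6, which encodes the phosphatase SHP-1 that CD22 recruits, was higher in KO cells at 16 h by 0.52 (SE 0.111, adjusted p = 0.0241). The Ptpn6 call ended in 6 of 12 alternative settings and without any single 16 h array (adjusted p = 0.0536 to 0.13). The lipid phosphatase Inppl1 was higher on average by 0.50 (adjusted p = 0.0351). It was not called in 6 of 12 alternative settings, among them the random block (adjusted p = 0.234) and set means compared 3 against 3 (adjusted p = 0.954). Nor was it called without any 1 of 12 single arrays (adjusted p = 0.0523 to 0.0768). Inpp5d, which encodes SHIP-1 and serves FcγRIIB, had a difference of 0.28 at 16 h (adjusted p = 0.514).

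A list drawn up as other inhibitory receptors of B cells also holds surface molecules that are not inhibitory receptors, among them Cd24a and Fcrl1. Of its 16 measured genes, 9 fell (18.5% of all genes) and 2 rose (20.9%) in WT cells at 16 h, with a median of -1.32. Pirb (-2.84, limma adjusted p = 2.97e-08), Btla (-1.97, adjusted p = 2.33e-11), Fcrl1 (-1.93, adjusted p = 3.16e-07) and Cd24a (-1.20, adjusted p = 2.57e-07) fell. Fcrl1 was higher in KO cells on average by 0.52 (adjusted p = 0.0226). That call ended in 6 of 12 alternative settings, among them the random block (adjusted p = 0.107), and without either of 2 single arrays. Pdcd1, which encodes PD-1, averaged 10.3 in WT and 7 in KO cells at 16 h (difference -3.29, SE 0.702, adjusted p = 0.0221), against the direction of Cr2, Cd22 and Fcer2a. The Pdcd1 call ended in 4 of 12 alternative settings and without any single 16 h array (adjusted p = 0.057 to 0.135), and at 0 and 3 h Pdcd1 lay under the filter level in both genotypes.

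Of 11 genes for ligands of these receptors and the enzymes that make, change or shed them, 8 fell (18.5% of all genes) and 1 rose (20.9%) in WT cells at 16 h, with a median of -1.31. Cmah, which makes the sialic acid form that mouse CD22 prefers, fell (-4.01, limma adjusted p = 1.43e-11), as did the complement regulator Cd55 (-3.88, adjusted p = 1.44e-11) and the sialyltransferases St3gal1 (-3.33, adjusted p = 7.29e-06) and St8sia4 (-2.56, adjusted p = 1.71e-07). Adam10, the protease that sheds CD23 from the cell surface, was lower in KO cells at 16 h by 0.82 (SE 0.14, adjusted p = 0.00341) and on average by 0.51 (adjusted p = 0.000173). Its group means were 11.90 in WT and 11.84 in KO cells at 0 h and 12.59 and 11.77 at 16 h. The 16 h call of Adam10 ended with arrays scaled to a common median (adjusted p = 0.174), and the averaged call with set means compared 3 against 3 (adjusted p = 0.385).

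Of 11 tetraspanins other than Cd81, 6 fell (18.5% of all genes) and 3 rose (20.9%) in WT cells at 16 h, with a median of -0.50. None was called between the genotypes, where 0.426% of all genes were higher and 0.189% lower in KO cells at 16 h. Tspan32 (-2.06, limma adjusted p = 3.89e-09), Cd37 (-1.77, adjusted p = 8.03e-09) and Cd82 (-1.09, adjusted p = 2.52e-08) fell and Cd9 rose (2.19, adjusted p = 2.68e-08). Of 20 transcription factors of mature B cells, 13 fell and 3 rose, against 18.5% and 20.9% of all genes. Bcl6 (-3.45, adjusted p = 6.77e-12), Foxo1 (-2.23, adjusted p = 8.59e-11) and Pou2af1 (-1.95, adjusted p = 2.93e-12) fell, and Rbpj, which acts below Notch receptors, rose (2.02, adjusted p = 1.94e-08). Bcl6, the repressor that marks germinal centre B cells, was higher in KO cells at 16 h by 0.98 (SE 0.209, adjusted p = 0.022). This call ended in 6 of 12 alternative settings, and without KO 16 h replicate 2 (adjusted p = 0.18) or WT 16 h replicate 2 (adjusted p = 0.203). Spib was lower on average by 0.36 (adjusted p = 0.0159) and lost its call in 6 of 12 alternative settings, among them the random block (adjusted p = 0.132).

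**Figure D5:**
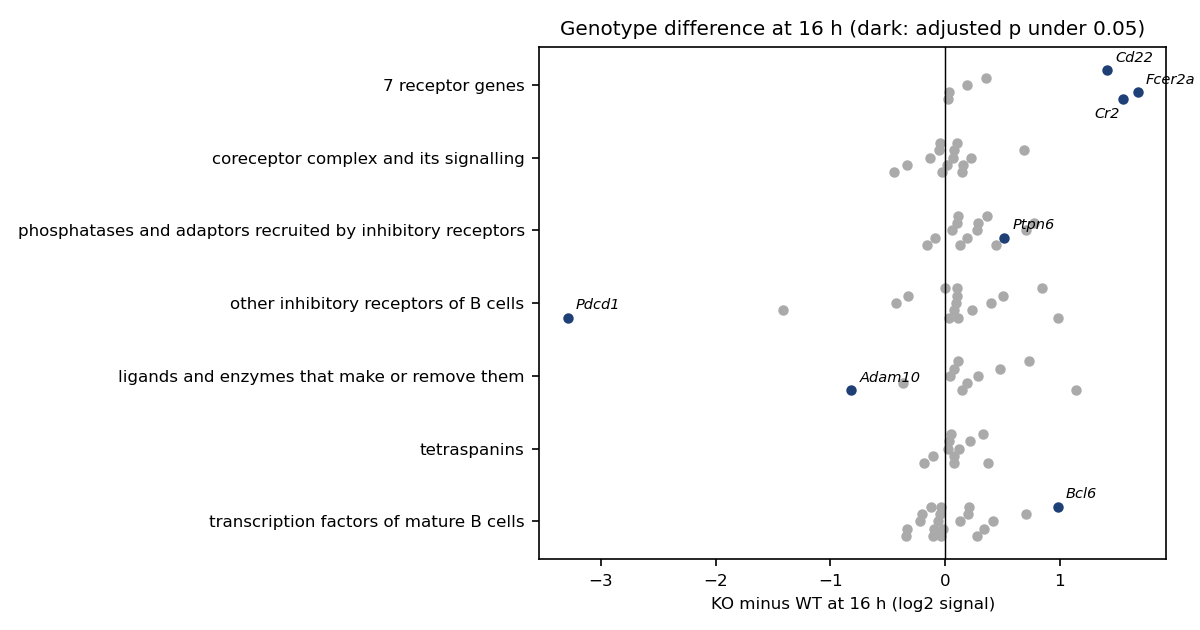
KO minus WT at 16 h in log2 signal (horizontal axis), 1 point per gene, for the 7 receptor genes and the measured genes of 6 lists. Dark points have an adjusted p under 0.05: Cr2, Fcer2a and Cd22 at 1.41 to 1.68, Bcl6 at 0.98, Ptpn6 at 0.52, Adam10 at -0.82 and Pdcd1 at -3.29.

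Cr2 and Fcer2a are also markers of B cell subsets, and in bulk RNA fewer cells of a type and less RNA per cell cannot be told apart. The mean log2 signal of 8 other marginal zone markers at 0 h was 11.4 to 11.7 in WT and 11.8 to 12 in KO arrays. At 16 h it was 10.4 to 10.6 and 10.7 to 10.8, so KO arrays lay above WT arrays on this mean at both times. The 16 h mean includes Cd36, which had the largest difference of the 8, and the differences of the others had both signs. With Cr2 included, 9 of 9 marginal zone markers had a positive KO minus WT difference at 0 h (median 0.32, none called), and 5 of 9 at 16 h (median 0.03). Averaged over the 4 times, 8 of 9 were positive (median 0.18) and 3 were called higher, where 0.733% of all genes were. At 16 h Cr2 and the scavenger receptor Cd36 (1.63, limma adjusted p = 0.00341) were called higher. The other positive differences were S1pr3 (0.57, adjusted p = 0.523), Cd1d1 (0.34, adjusted p = 0.933) and Cd9 (0.03, adjusted p = 0.997), and the negative ones Mzb1 (-0.61, adjusted p = 0.0712), Plac8 (-0.14, adjusted p = 0.997), Pik3r4 (-0.06, adjusted p = 0.997) and Dtx1 (-0.02, adjusted p = 0.997). None of the 8 had a group mean under the filter level at 0 or 16 h. The mean of 3 other follicular markers (Cxcr5, Ccr7 and Klf2) was 12.9 to 13.2 in WT and 12.6 to 13.3 in KO arrays at 0 h, and 10.2 to 10.6 and 10.3 to 10.4 at 16 h, overlapping at both. The 5 transitional B cell markers averaged 8.2 to 8.72 in WT and 8.66 to 9.16 in KO arrays at 16 h, with 4 of 5 differences positive (median 0.47) and Cd93 called higher (0.98, adjusted p = 0.0291), and at 0 h 0 of 5 were positive (median -0.31). The 7 B1 cell markers lay lower in KO arrays at 16 h, at 7.02 to 7.08 against 7.49 to 7.67 (median difference -0.79), with Spn called lower (-1.05, adjusted p = 0.0147), and their median difference at 0 h was -0.43. Averaged over the 4 times, 2 of 7 B1 markers were called lower (0.475% of all genes), and none of the 5 transitional markers was called. The part of subset composition in the Cr2, Cd22 and Fcer2a differences was not tested.

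Cells other than B cells also carry some of these receptors: follicular dendritic cells carry CD21, and macrophages carry FcγRIIB. The 7 follicular dendritic and stromal markers averaged 5.97 to 6.29 in WT and 5.34 to 6.78 in KO arrays at 16 h, with 2 and 3 of 7 under the filter level. The 8 macrophage and monocyte markers averaged 6.44 to 7.30 in WT and 6.73 to 7.48 in KO arrays at 16 h, with 4 and 3 of 8 under the filter level. Of the 7 macrophage markers tested, 6 had a positive KO minus WT difference at 16 h (median 0.21), and Adgre1, which encodes F4/80, was called higher (1.18, limma adjusted p = 0.0191). Lyz2, the lysozyme gene of myeloid cells, had a mean of 11.03 over the 24 arrays and a difference of 0.21 (adjusted p = 0.997). The list's markers did not lie at one level. C1qa averaged 1.71 to 4.31 in the 8 groups and lay under the filter level in all of them, and C1qb averaged 4.137 to 6.735. Csf1r averaged 8.417 to 9.975 and Cd68 7.748 to 8.327, above the filter level in all groups. Both lists' means overlapped between the genotypes at 16 h, and the part of these cells in the receptor differences was not tested.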

How the data were processed

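Expression was measured on 24 Affymetrix arrays of mouse splenic B cells. The deposited values are log2 of signals computed with MAS5, per the submitters' processing notes (no version given), and were used as deposited. The trimmed mean signal, with 2% left out at each end, was 500 on every array, so levels are relative to the array and a change in RNA per cell is not seen. No detection calls were used. Of 45101 probe sets, 64 controls were left out, 34945 had 1 gene symbol, 932 several and 9160 none in the platform annotation. Probe sets had to lie above their array's 40th percentile (5.375 to 6.425) in 3 or more arrays. The brightest represented each of 14318 genes.

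Group means were fitted with limma 3.58.1 in R 4.3.3 to all 24 arrays, with eBayes with trend and 16 residual degrees of freedom, and adjusted by Benjamini-Hochberg over all genes. The fit was tested on simulated data. Alternatives were other normalizations, filters, blocks and left-out arrays. The members, gene lists and naming rule were chosen with earlier results of these data known. List genes were named by smallest p, at most 4 per list and comparison. Inpp5d and the single cell type markers given by name were chosen after their values were seen. The number of arrays limits the precision, and the labels call replicates biological without naming animals.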

Additional observations from a re-analysis of the deposited data

How the results depend on the processing

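The share of all genes called was not counted in the alternative settings. Of 13 settings tried in all, 12 gave a value for each comparison named next, except the F-test, for which 10 did. In these 12 and with each of 24 arrays left out, the count of the 7 genes called at 0 h, at 3 h and in the 3 h and 8 h genotype-by-time differences stayed at 0. Required to exceed 1.5-fold, the averaged count went from 3 to 0, the 16 h count from 3 to 1 and the WT 16 h count from 7 to 4 (5 to 7 with single arrays left out). Set means compared 3 against 3 gave 1. The 8 h count of 2 fell to 0 with median scaling, only the compared groups, no trend, 1.5-fold, no male-type arrays or without the 2 brightest arrays, and ranged from 0 to 2 with single arrays left out. For the change to 16 h the count of 0 became 2 with the replicate block, 3 with the random block (correlation 0.208) and 0 to 1 with arrays left out, and for the F-test 1 and 0 to 1. Replicate numbers do not pair the genotypes by the labels: 12 same-number KO and WT pairs correlated at 0.016 to 0.22, 3 of them over 0.1, others at -0.18 to 0.12, and 10 of 12 WT arrays correlated best with their own number. With that replicate block, the calls gained were Cr2 (adjusted p = 0.0235) and Fcer2a (adjusted p = 0.0412) for the change to 16 h and Cd81 from 0 to 16 h in KO cells (adjusted p = 0.0163, and 0.0466 with the random block). Cd72 gained a KO call at 16 h with quantile normalization (-0.46, adjusted p = 0.00324), and the KO 8 h call of Cd81 ended without KO 8 h replicate 2 (adjusted p = 0.138).

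Signs turned only in differences that were not called. With median scaling Cd81 KO minus WT at 16 h was -0.0008, and Cd72 was 0.0083 at 0 h, -0.044 at 8 h, 0.12 in WT from 0 to 8 h and -0.0023 in the change to 16 h. Quantile normalization gave Cd72 -0.026 at 8 h and -0.099 in KO from 0 to 8 h. Without the 2 brightest arrays Cd81 was 0.041 averaged and 0.084 at 8 h, Cd72 -0.034 at 16 h, and Fcgr2b -0.00035 at 16 h and -0.068 in the change. With single arrays left out, Cd81 ran from -0.071 to 0.033 averaged, -0.33 to 0.084 at 8 h and -0.11 to 0.13 at 16 h. Cd72 ran from -0.085 to 0.073 at 8 h, -0.098 to 0.15 at 16 h, -0.10 to 0.054 in WT and -0.0017 to 0.048 in KO from 0 to 8 h, and -0.041 to 0.21 in the change. Fcgr2b ran from -0.29 to 0.020 at 3 h, -0.00035 to 0.32 at 16 h and -0.068 to 0.25 in the change, Fcer2a from -0.068 to 0.17 at 3 h, and Siglecg from -0.089 to 0.11 at 0 h. Of 36 results for list genes, none turned sign, and calls ended in 49 of 432 setting values and 28 of 864 single-array values. The cause of these changes was not tested. With 3 arrays a group, small genotype differences have wide intervals, as given for Siglecg, Fcgr2b and Cd72.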
